A study of Mus musculus with 20 samples.

Results

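In fenofibrate-fed mouse hearts, 170 array probes under 163 names were higher than on chow after 3 weeks of the drug and near the chow level after 8 weeks, in mice that lacked MuRF1 and in mice that had it. They were taken from 17417 probes detected in heart, of 41174 on the array. A probe was taken when its signal was well above background on at least 10 of 20 arrays, its mean log2 level at 3 weeks was at least 1.0 above the chow mean in both genotypes, and its mean at 8 weeks lay within 0.4 of the chow mean in both. Another 4 probes that met these differences were left out as X-linked, and none met them through Neat1, Malat1 or Meg3. Because these differences chose the members, the 3-week and 8-week differences from chow are given as descriptions, without a test.

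The study compared MuRF1 -/- and MuRF1 +/+ mice. MuRF1 is the muscle ubiquitin ligase encoded by Trim63, and fenofibrate is an activator of the nuclear receptor PPAR alpha. The groups were MuRF1 -/- 3WK FENO (4 hearts), MuRF1 -/- 8WK FENO (3), MuRF1 -/- CHOW (3), MuRF1 +/+ 3WK FENO (4), MuRF1 +/+ 8WK FENO (3) and MuRF1 +/+ CHOW (3), with fenofibrate at 0.05% by weight of the diet. Every array set 1 heart against reference RNA pooled from C57BL/6 newborn pups (postnatal day 1), so a level here is log2 of heart over pup signal. The chow hearts belong to the 8-week arm, so the drug and the time on the diet cannot be told apart in the 3-week comparisons, and the 3-week and 8-week comparisons share the same chow hearts. Per the labels the hearts are biological replicates, with no sex or litter given. The sample labels give 3 and 8 weeks as time on the diet, and the series text also describes the mice as 3 to 8 weeks old, so their ages are unclear. The sources used here do not say how the knockout was made.

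Of the 119 members with a RefSeq gene name, 24 were given a role in RNA processing, after their values were seen, and the share of all tested genes with such a role was not counted. As background, SR proteins and their relatives bind newly made transcripts and recruit the splicing machinery, CLK kinases phosphorylate SR proteins, and many of these factors gather in nuclear speckles built around scaffold proteins such as Son. Cyclins L1 and L2 (Ccnl1, Ccnl2) are partners of kinases that act in splicing, Tra2a is an SR-like splicing regulator, and the Luc7-like proteins Luc7l and Luc7l2 are linked to the U1 particle that recognises the start of an intron. Splicing-factor genes are known to regulate their own transcripts through alternative splicing and retained introns. An array probe reads only the short stretch it was designed on, so different probes of a gene can report different transcripts.

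The start-site regions of 4 splicing members measured at RefSeq probes are shown because these members were higher at 3 weeks in both genotypes. Each runs from 250 bases before to 50 bases after the start, from RefSeq on GRCm38.p6, with Ccnl1 at chr3:65958200-65958499 (minus strand), Ccnl2 at chr4:155812239-155812538 (plus strand), Son at chr16:91647574-91647873 (plus strand), Tra2a at chr6:49264003-49264302 (minus strand). Capitals mark CCAAT boxes and GGGCGG boxes in either orientation.
Ccnl1: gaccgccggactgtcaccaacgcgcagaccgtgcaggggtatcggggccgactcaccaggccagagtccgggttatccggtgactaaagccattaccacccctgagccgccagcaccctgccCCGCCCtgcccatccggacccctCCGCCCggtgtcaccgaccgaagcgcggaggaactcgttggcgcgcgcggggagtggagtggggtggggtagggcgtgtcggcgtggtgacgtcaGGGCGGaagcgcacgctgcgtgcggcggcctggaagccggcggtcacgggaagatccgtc
Ccnl2: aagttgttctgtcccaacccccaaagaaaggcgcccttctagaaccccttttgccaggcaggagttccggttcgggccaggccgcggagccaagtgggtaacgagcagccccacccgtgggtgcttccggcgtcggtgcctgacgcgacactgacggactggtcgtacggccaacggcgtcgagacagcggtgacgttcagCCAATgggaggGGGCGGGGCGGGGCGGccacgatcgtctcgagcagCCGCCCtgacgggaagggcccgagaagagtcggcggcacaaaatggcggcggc
Son: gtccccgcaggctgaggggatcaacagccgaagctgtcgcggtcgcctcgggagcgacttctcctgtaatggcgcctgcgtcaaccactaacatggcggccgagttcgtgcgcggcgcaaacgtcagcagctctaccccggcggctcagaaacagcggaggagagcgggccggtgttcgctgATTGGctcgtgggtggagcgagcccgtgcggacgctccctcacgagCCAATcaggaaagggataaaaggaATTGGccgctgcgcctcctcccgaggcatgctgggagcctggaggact
Tra2a: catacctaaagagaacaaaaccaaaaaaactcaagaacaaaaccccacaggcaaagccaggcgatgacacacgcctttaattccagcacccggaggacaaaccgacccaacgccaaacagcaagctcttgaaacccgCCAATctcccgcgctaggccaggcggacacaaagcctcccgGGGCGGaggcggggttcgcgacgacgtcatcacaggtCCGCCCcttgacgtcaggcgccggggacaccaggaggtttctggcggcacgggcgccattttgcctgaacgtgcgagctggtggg

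CCAAT is the box bound by NF-Y, whose subunit Nfya is among the members through a cDNA clone probe, and GGGCGG is the GC box bound by Sp1. The RefSeq probe of Nfya was well above background on only 1 array. It differed from chow at 3 weeks by 0.46 in MuRF1 -/- and -0.29 in MuRF1 +/+. Searched on both strands, with overlapping matches counted, the Ccnl1 region held 0 CCAAT and 3 GGGCGG boxes, the Ccnl2 region 1 and 4, the Son region 3 and 0, and the Tra2a region 1 and 2. A region was available for 98 of the 119 RefSeq-matched member genes. CCAAT was in 36.7% of them, against 38.6% of 9000 regions of genes tested on the arrays and 38% of all 27025 regions. GGGCGG was in 64.3% of the member regions, against 64.2% of the regions of tested genes and 35.9% of all regions. The cAMP response element TGACGTCA was in 4.08% of member regions, against 3.29% of those of tested genes and 1.85% of all. The PPAR response element, a direct repeat of AGGTCA spaced by 1 base, was in 0 of the 98 member regions, against 0.0222% of those of tested genes and 0.0444% of all. For CCAAT and GGGCGG the shares in members and in tested genes were close, and the PPAR element is too rare for a comparison.

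Trim63 itself was low on all MuRF1 -/- arrays (log2 level -2.63 to -1.25) and high on all MuRF1 +/+ arrays (1.2 to 3.22), as labelled. The cardiomyocyte myosin gene Myh6 lay between 3.27 and 3.98 on all arrays. The share of probes with a heart signal well above background was 38.8% to 44.2% on chow arrays, 34.3% to 51.9% on 3-week arrays and 34.0% to 43.0% on 8-week arrays. Replicate 2 of MuRF1 +/+ 8WK FENO and replicate 4 of MuRF1 -/- 3WK FENO had the lowest shares (34.0% and 34.3%) and stood apart from their groups. Y-linked and X-linked transcripts moved with the groups. The Y-linked Ddx3y lay between -4.75 and -1.10 on all MuRF1 -/- 3-week arrays and between -4.37 and -2.58 on all MuRF1 +/+ 3-week arrays, against 2.00 to 2.41 and 2.03 to 2.26 on the matching chow arrays. In MuRF1 +/+ 8WK FENO hearts Ddx3y was low too (-3.37 to -2.16), and the members were near chow there on 2 of 3 arrays (values follow). In MuRF1 -/- 8WK FENO it was low (-3.99) on replicate 2 and high (1.93 and 2.34) on the other arrays, and the members' median on replicate 2 was 0.11 below the chow mean. Xist, the RNA that silences an X chromosome in females, lay between -7.29 and -6.31 on chow, between -0.56 and 0.08 at 3 weeks and between -6.58 and -0.98 at 8 weeks. In both genotypes Ddx3y was low and Xist high on every 3-week array, and the reverse on every chow array. Sex and the 3-week difference therefore cannot be told apart, and the part of sex in the members was not tested. In these bulk samples, fewer cells of a type and less RNA per cell cannot be told apart.

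Over the 170 members, the median 3-week difference from chow was 1.73 in MuRF1 -/- hearts and 1.53 in MuRF1 +/+ hearts, or 3.31-fold and 2.89-fold. The differences ran from 1.00 to 4.64 in MuRF1 -/- and from 1.01 to 4.21 in MuRF1 +/+, and the medians over all tested probes were -0.06 in both. Differences of 1.0 or more were reached by 4.94% of tested probes in MuRF1 -/-, by 3.86% in MuRF1 +/+ and by 3.32% (578 probes) in both, and 46% of tested probes lay within 0.4 of chow at 8 weeks in both. Of the 578 raised probes, 401 had the larger difference in MuRF1 -/-, as had 138 of the 170 members. The members' median level was 0.37 at 3 weeks against -1.49 on chow in MuRF1 -/-, and 0.21 against -1.39 in MuRF1 +/+. Over all tested probes the median levels were 0.14 at 3 weeks and 0.22 on chow in MuRF1 -/-, and 0.18 and 0.25 in MuRF1 +/+. On chow 147 members were below the pup reference in both genotypes, and 55 were at 3 weeks. The share of all tested probes below the reference was not counted. A rule on the rise from chow can favour low chow levels, so these counts are a description only.

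The size of these differences depends on how background was treated. With normexp background correction and loess in place of Agilent's ratio, the medians were 0.71 in MuRF1 -/- and 0.68 in MuRF1 +/+, and 33 of the 170 members were at 1.0 or more in both, though all 170 remained above chow. In the authors' matrix the medians were 0.85 and 0.97. By the same rule normexp chose 88 probes, of which 31 are members.

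Single arrays differed little within a 3-week group. The median of the members, taken above the chow mean of the same genotype, was 1.76, 1.57, 1.82 and 1.92 on the 4 MuRF1 -/- 3-week arrays and 1.54, 1.58, 1.46 and 1.57 on the 4 MuRF1 +/+ 3-week arrays. All 4 MuRF1 -/- 3-week arrays lay above all 3 chow arrays for 167 members (background 16.7% of tested probes), and all 4 MuRF1 +/+ 3-week arrays did for all 170 (background 22%). Both held for 167 members, against 13.1% of tested probes. On single slides that held both groups, the median was 1.77, 2.0 and 1.37 in MuRF1 -/- and 1.49 and 1.49 in MuRF1 +/+, and all 170 members were above chow on each. These counts and within-slide values come from the arrays that chose the members, so they are read no further. The rule was also applied again without 1 of the 3-week arrays. Of the probes then chosen, 82.8% to 95.8% were at least 1.0 above chow on the array left out. The median share over the 8 arrays was 90.4%. The chow means that chose the probes were used again here, and the detection filter still included the array left out. No share over all tested probes was computed, so these values are a description only.

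At 8 weeks the median of the members was 0.03, -0.11 and -0.03 on the 3 MuRF1 -/- arrays and -0.29, 0.81 and -0.02 on the 3 MuRF1 +/+ arrays. The MuRF1 -/- arrays were alike, while the MuRF1 +/+ mean near chow combined replicate 1, below chow, with replicate 2, above it. On replicate 2, 145 members were above the highest chow array (background 41.4%), against 12 on replicate 1 (31.7%) and 47 on replicate 3 (35.6%), and 53 members on replicate 2 were at least 1.0 above the chow mean (background 13.3%). Without replicate 2 the MuRF1 +/+ median at 8 weeks was -0.17 in place of 0.17. Chosen without it, the rule gave 258 probes, of which 124 were members, and only 7.75% of the 258 lay within 0.4 of chow on replicate 2. Chosen without MuRF1 +/+ 8WK FENO replicate 1 it gave 96 probes, 90 of them members. All 3-week arrays lay above all 8-week arrays for 167 members in MuRF1 -/- (background 21.5%) and for 147 in MuRF1 +/+ (background 13.7%), an order that the rule builds in. No MuRF1 -/- 8WK FENO array was well above background for 21 members and no MuRF1 +/+ 8WK FENO array for 9, so their 8-week values near chow rest on undetected signal.

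**Figure D1:**
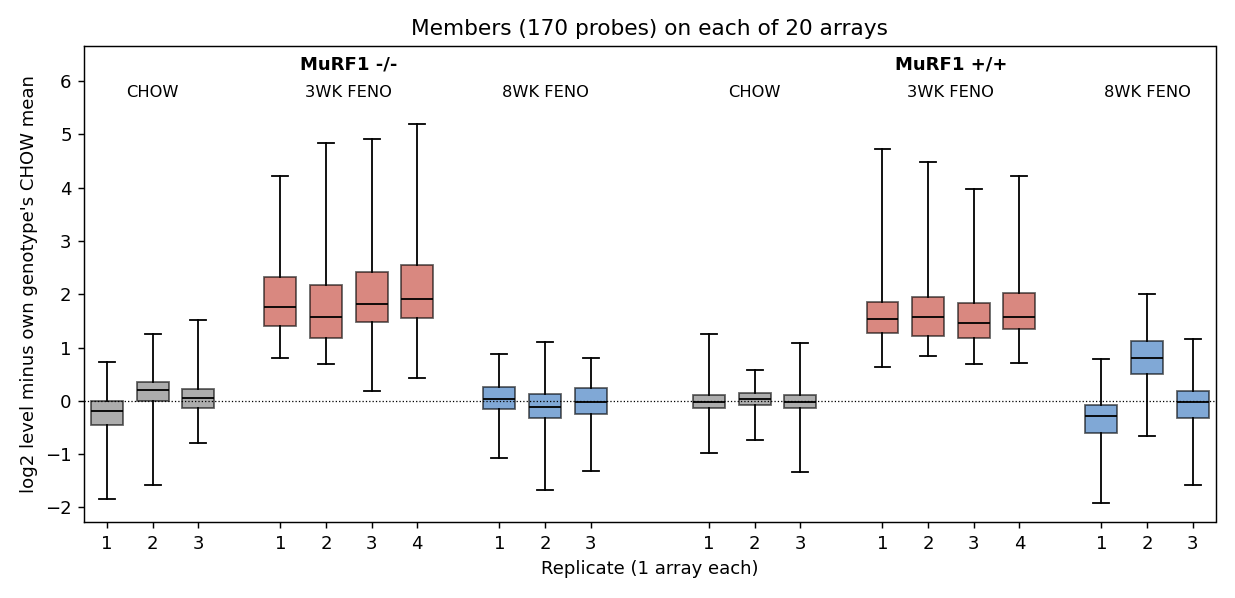
Log2 level of the 170 member probes on each of 20 arrays, minus the chow mean of the same genotype. Boxes span the quartiles, the line is the median and whiskers reach the lowest and highest member. The 3-week medians lie between 1.46 and 1.92, and the 8-week medians lie within 0.3 of chow except for 0.81 on replicate 2 of MuRF1 +/+ 8WK FENO.

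Splicing and nuclear speckle genes gave 12 member probes from 9 genes, which were grouped by role after their values were seen. Son, the speckle scaffold, had levels of 0.11, -0.05, 0.35 and 0.19 in MuRF1 -/- 3-week hearts against -1.04, -0.83 and -0.96 on chow, and of 0.36, -0.01, -0.02 and 0.45 in MuRF1 +/+ 3-week hearts against -1.12, -0.89 and -1.06 on chow. The differences were 1.1 and 1.22, and no 3-week heart overlapped a chow heart. Its 8-week levels were -1.01, -1.04 and -1.0 in MuRF1 -/- and -0.96, -0.55 and -1.15 in MuRF1 +/+, and only replicate 2 of MuRF1 +/+ stood above the chow hearts. Luc7l had 2 member probes, with differences of 1.49 and 1.29 in MuRF1 -/- and 1.54 and 1.26 in MuRF1 +/+. The first read 0.16, 0.04, 0.18 and 0.24 in MuRF1 -/- 3-week hearts, against -1.43, -1.13 and -1.45 on chow. Luc7l2 also had 2, at 2.61 and 1.48 in MuRF1 -/- and 2.36 and 1.24 in MuRF1 +/+. Its 3 other detected probes were at 0.39 and 0.47, 0.69 and 0.50, and 0.51 and 0.39.

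Ccnl1 had levels of 0.09, -0.50, 0.18 and 0.15 in MuRF1 -/- 3-week hearts against -1.64, -1.54 and -1.36 on chow, a difference of 1.49, and its difference in MuRF1 +/+ was 1.25. Ccnl2 was measured at 2 member probes, with differences of 2.32 and 1.86 in MuRF1 -/- and 1.75 and 1.5 in MuRF1 +/+. Rbm25, which binds RNA and takes part in the choice of splice sites, had 1 of the largest differences of the group. It read -0.32, -0.40, -0.01 and 0.17 in MuRF1 -/- 3-week hearts against -4.06, -3.41 and -3.42 on chow, and -0.53, -0.40, -0.51 and -0.25 in MuRF1 +/+ 3-week hearts against -3.21, -2.82 and -3.12 on chow. These are differences of 3.49 and 2.63, with an outlier-flagged spot left out on 1 of the MuRF1 -/- 8-week arrays. The member probes of Tra2a (2.43 and 1.88), Rbm39 (2.04 and 2.02), a splicing cofactor, and Pnisr (1.43 and 1.73), an SR-related protein, ran the same way. Over the 12 probes the median differences were 1.68 in MuRF1 -/- and 1.64 in MuRF1 +/+.

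A further 15 members belonged to other RNA-binding and processing genes, with medians of 1.67 and 1.25. The RNA helicase gene Ddx50 read -0.68, -0.87, -0.59 and -0.73 in MuRF1 -/- 3-week hearts against -3.75, -3.32 and -3.46 on chow, and -0.78, -0.90, -1.04 and -0.79 in MuRF1 +/+ 3-week hearts against -3.58, -3.05 and -3.69 on chow. Its differences were 2.79 and 2.56, without overlap, and those of Tardbp, which encodes the splicing regulator TDP-43, were 1.68 and 1.59. Others of this group were Tia1 (1.67 and 1.12), an RNA-binding protein of stress granules, the poly(A)-binding protein gene Pabpn1 (1.48 and 1.25) and Cpsf7 (1.43 and 1.01), a subunit of the complex that cuts the 3′ end of pre-mRNA. Cpsf7 was 1 of the members just inside the limit of 1.0. Gas5 (1.55 and 1.44), Snhg20 (1.68 and 1.55) and Snhg17 (1.25 and 1.21), which host small nucleolar RNAs in their introns, were members too.

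Transcription factors and their partners gave 15 members from 14 genes, with medians of 1.96 and 1.70. Aff4, the scaffold of the super elongation complex that releases paused RNA polymerase II, had the largest difference of all named members. It read 4.98, 5.58, 5.82 and 5.83 in MuRF1 -/- 3-week hearts against -0.10, 0.53 and 2.32 on chow, and 5.95, 5.72, 4.62 and 5.46 in MuRF1 +/+ 3-week hearts against 1.95, 0.70 and 1.03 on chow. The difference was 4.64 in MuRF1 -/-. The signal of the pup reference at this probe was also higher on the 3-week arrays, by 1.19 in MuRF1 -/- and 0.88 in MuRF1 +/+. In MuRF1 +/+ no chow array was well above background for Aff4. Its heart signal, as opposed to its ratio to the reference, was at least 24.4-fold higher at 3 weeks. Here the heart signal on each chow array was set to no less than the lowest signal well above background on that array, after scaling each array to its 75th percentile. The same held for 3 members in MuRF1 +/+ (at least 1.55-fold to 24.4-fold) and for 12 in MuRF1 -/- (at least 2.54-fold to 7.3-fold), so their log2 differences rest on a chow value that is only a bound.

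Ccnt2, a cyclin partner of the elongation kinase CDK9, read -0.03, -0.11, 0.36 and 0.45 in MuRF1 -/- 3-week hearts against -2.68, -2.17 and -2.80 on chow, and 0.14, 0.12, 0.18 and 0.10 in MuRF1 +/+ 3-week hearts against -2.56, -2.22 and -2.68 on chow. Its differences were 2.72 and 2.62. Nfya (3.68 and 2.74), Nfkb1 (1.77 and 1.70 at 1 probe, 1.31 and 1.61 at another), the p53 gene Trp53 (1.54 and 1.51) and Nfe2l2 (1.96 and 2.12), the regulator of antioxidant genes, were members as well. Creb3l3 encodes a transcription factor of lipid metabolism in liver and was the only member on the list of PPAR alpha targets. It read -0.31, -0.39, -0.83 and 0.27 in MuRF1 -/- 3-week hearts against -3.79, -3.61 and -3.61 on chow, a difference of 3.36, and differed by 2.58 in MuRF1 +/+. Dido1, a chromatin-binding protein, differed by 2.28 and 2.11. Zkscan3, a zinc-finger factor, was the other member just inside the limit of 1.0, at 1.00 in MuRF1 -/-. Just outside it were the cDNA clones AK148746 (0.99 in MuRF1 +/+) and AK083983 (0.99 in MuRF1 -/-). At 8 weeks B3gat3 and the EST cluster TC1453818 lay just inside 0.4, and Fsd1l and Hnrnpdl just outside, within 0.01 of it.

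Cell-surface and metabolic genes made up a smaller set of 20 probes, 1 for each of 20 genes. Gabbr2, a subunit of the GABA-B receptor, read 5.52, 5.94, 6.47 and 6.88 in MuRF1 -/- 3-week hearts against 0.94, 2.63 and 3.52 on chow, and 5.97, 6.03, 5.37 and 5.49 in MuRF1 +/+ 3-week hearts against 3.75, 2.74 and 1.24 on chow. Its differences were 3.84 and 3.14. The chow hearts of both genotypes spread over more than 2 log2 units, below every 3-week heart. The signal of the pup reference at this probe was also higher on the 3-week arrays, by 1.70 and 1.74. Bdkrb1, the bradykinin B1 receptor, differed by 2.10 and 2.40, and Kcne1, a potassium channel subunit of the heart, by 2.37 and 1.27. Myh4 encodes a fast myosin of skeletal muscle. It read 0.05, 1.19, -1.5 and 0.90 in MuRF1 -/- 3-week hearts against -3.92, -3.61 and -3.41 on chow, and 0.24, -0.89, 1.04 and -0.61 in MuRF1 +/+ 3-week hearts against -1.68, -3.68 and -3.46 on chow. The hearts of 1 group spread widely here, yet the groups did not overlap.

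Ghr, the growth hormone receptor, read 0.58, 0.43, 0.85 and 0.84 in MuRF1 -/- 3-week hearts against -2.37, -2.22 and -1.95 on chow, and 0.52, 0.49, 0.44 and 0.93 in MuRF1 +/+ 3-week hearts against -2.01, -2.0 and -1.71 on chow. The differences were 2.85 and 2.50. Dlst, an enzyme of the tricarboxylic acid cycle, read 0.62, 0.62, 1.05 and 0.73 in MuRF1 -/- 3-week hearts against -1.86, -1.30 and -1.96 on chow, a difference of 2.46, and differed by 2.62 in MuRF1 +/+. Sdha, the flavoprotein of succinate dehydrogenase, differed by 2.27 and 1.70. Chchd3, a protein of the mitochondrial inner membrane, differed by 2.81 and 2.34, and the secretory-pathway calcium pump gene Atp2c1 by 2.26 and 2.39. The other named members with the largest differences were Nudcd3 (2.74 and 2.63), Ercc8 (2.71 and 2.49), a DNA repair factor, Dennd5b (2.54 and 2.43) and 2310067E19Rik (2.07 and 2.16).

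**Figure D2:**
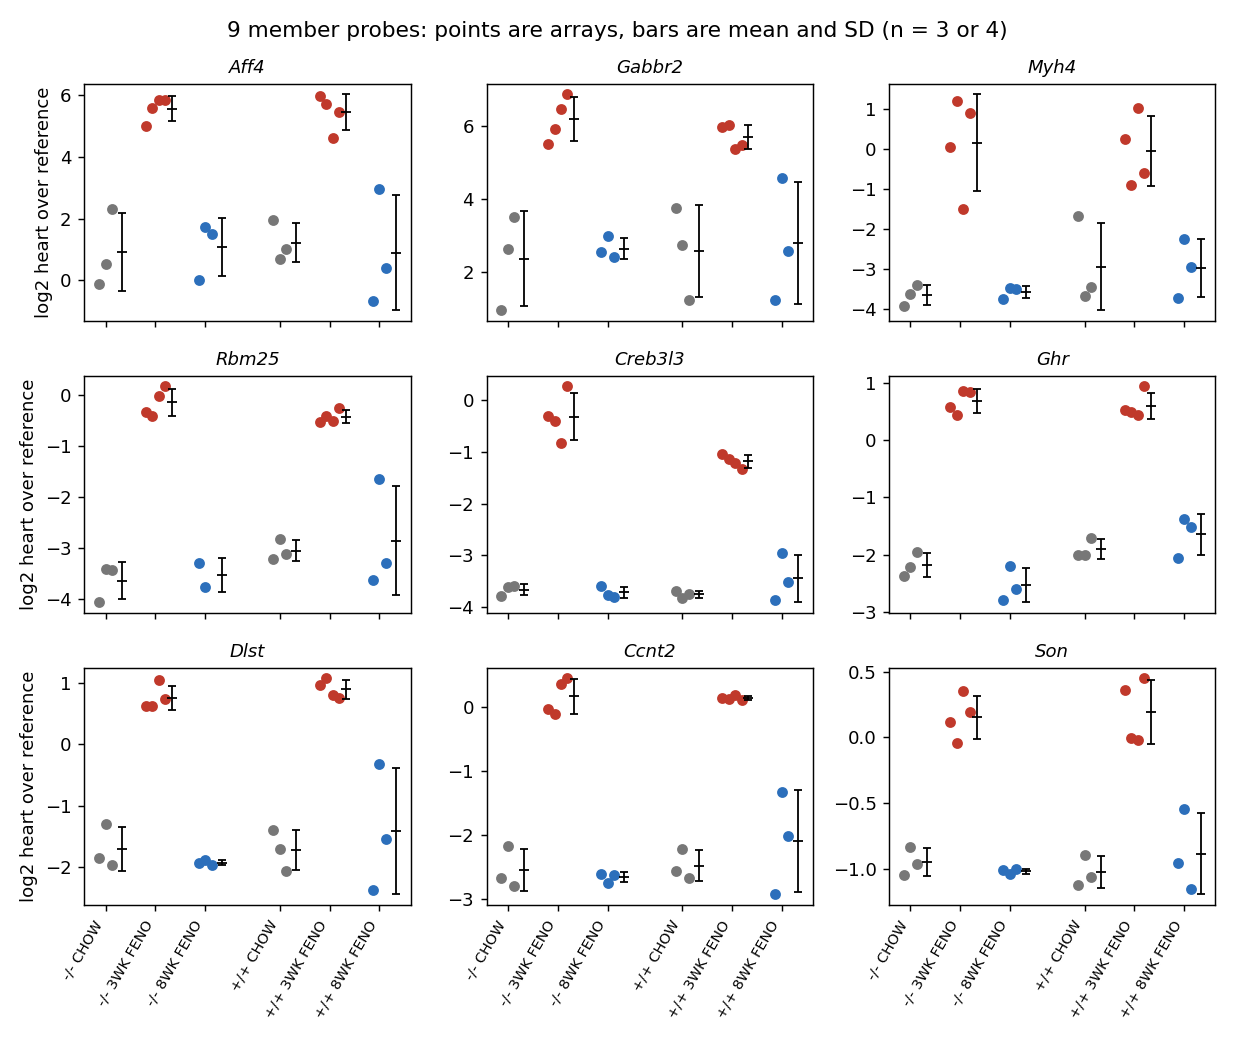
Log2 level of heart over reference for 9 member probes, with a point for each array and the mean and SD of each group beside its points (n = 3 or 4, and 2 for Rbm25 in MuRF1 -/- 8WK FENO). Every 3-week heart lies above every chow heart of its genotype in all 9, and the high point at 8 weeks in MuRF1 +/+ for Aff4, Rbm25, Ccnt2 and Dlst is replicate 2.

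Other probes of the same genes often differed from the member probe. Of the member genes, 85 had another probe past the detection filter, and 126 such probes were no members. Their median 3-week difference was 0.23 in MuRF1 -/- and 0.28 in MuRF1 +/+, with 8 at 1.0 or more in both genotypes, 49 within 0.4 of chow in both and 39 below chow in both. For the 9 splicing and speckle genes, 14 other probes had medians of 0.78 and 0.72, and 4 of them were at 1.0 or more in both. Rbm39 had another probe at 2.57 and 2.15, Ccnl1 at 2.50 and 2.34, Pnisr at 1.94 and 1.68, and Son at 1.08 and 1.34. Of the 14, 1 was within 0.4 of chow in both (Rbm25, 0.19 and 0.29). Below chow in both was 1 (Ccnl2, -0.49 and -0.36). A further Ccnl1 probe was at 0.25 and 0.57. For the other RNA-binding genes, 23 other probes had medians of 0.11 and 0.12, with 3 at 1.0 or more in both, 9 within 0.4 of chow and 10 below chow in both. Of these genes, Zfc3h1 had another probe at 3.56 and 3.50 (8 weeks: -0.04 and 0.90) and Rbm26 at 2.79 and 2.68 (8 weeks: -0.48 and 1.30). These 2 probes failed the rule only by their 8-week values.

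For receptors, channels, enzymes, mitochondrial genes and Myh4, 26 other probes had medians of 0.11 and 0.09, none was at 1.0 or more in both genotypes, and 14 were within 0.4 of chow in both. Dlst had other probes at 0.08 and -0.02 and at -0.78 and -1.36, against 2.46 and 2.62 at its member probe. The 3 other Ghr probes past the filter ran from -0.33 to 0.01 in MuRF1 -/- and from -0.39 to 0.16 in MuRF1 +/+. Another Ghr probe, designed on a RIKEN clone and well above background on only 8 arrays, was at 3.21 and 3.62 at 3 weeks and at 0.02 and 0.10 at 8 weeks. The other Myh4 probe was at 0.04 and 0.33, and both other Sdha probes were below chow (-0.35 and -0.07 in MuRF1 -/-, -0.19 and -0.36 in MuRF1 +/+). The same was seen at some regulators, as for Aff4, whose other detected probe was at -0.13 and 0.11, and Trp53 (0.15 and -0.02). B3gat3, a member at 1.06 and 1.21, had other probes at -1.85 and -1.31 and at -2.01 and -1.43. Of the 126 other probes, 85 were brighter in heart than the member probe.

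**Figure D3:**
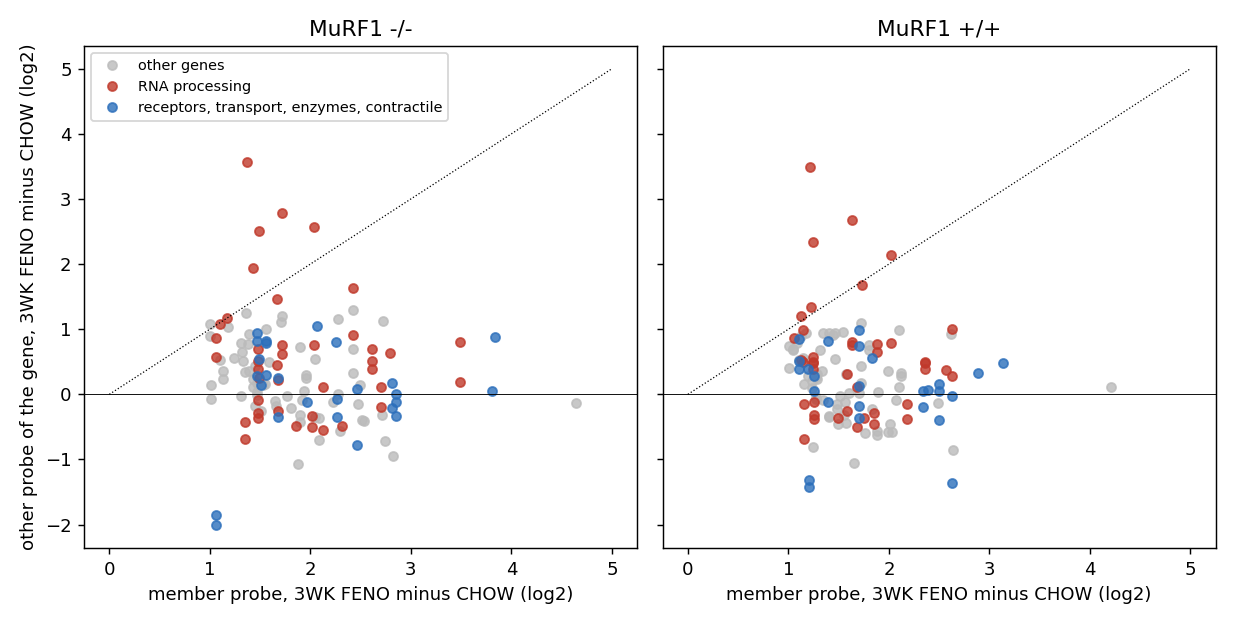
The 3-week difference from chow (log2) of each member probe, across, and of each other detected probe of the same gene, up, for MuRF1 -/- and MuRF1 +/+. The dotted line marks equal differences, and most points lie below it. Of 37 other probes of RNA processing genes, 7 were at 1.0 or more in both genotypes, 10 within 0.4 of chow and 11 below chow in both. Of 26 for receptors, transport, enzymes and contractile genes, 0 were at 1.0 or more in both, 14 within 0.4 of chow and 8 below chow in both.

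Many member probes were designed on cDNA clones and not on the RefSeq messenger RNA. RIKEN clones account for 75 members (44.1%), against 10.4% of tested probes, MGC clones for 17 (10%), against 4.48%, and RefSeq NM or NR transcripts for 51 (30%), against 76.1%. Among all 578 probes raised at 3 weeks, members included, the shares were 44.3%, 6.57% and 34.8%. The genes of clone members had 65 RefSeq probes that were no members, with medians of -0.01 and -0.02, and 2 of these probes were at 1.0 or more in both genotypes. The genes of RefSeq members had 25 further RefSeq probes, with medians of 0.64 and 0.57, of which 3 were at 1.0 or more in both. Members were also dimmer than most probes, with a median log2 heart signal of 9.02, against 10.09 over all tested probes. Of the members 70 were well above background on all 20 arrays, 167 on all 8 of the 3-week arrays and 87 on all 6 chow arrays. Another 24 were so on only 10 to 12 arrays. The median was 19 arrays for members and 20 for all tested probes, and the matching shares of all tested probes were not counted. The filter of 10 arrays can be met largely by the 3-week arrays, so these counts are a description only.

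**Figure D4:**
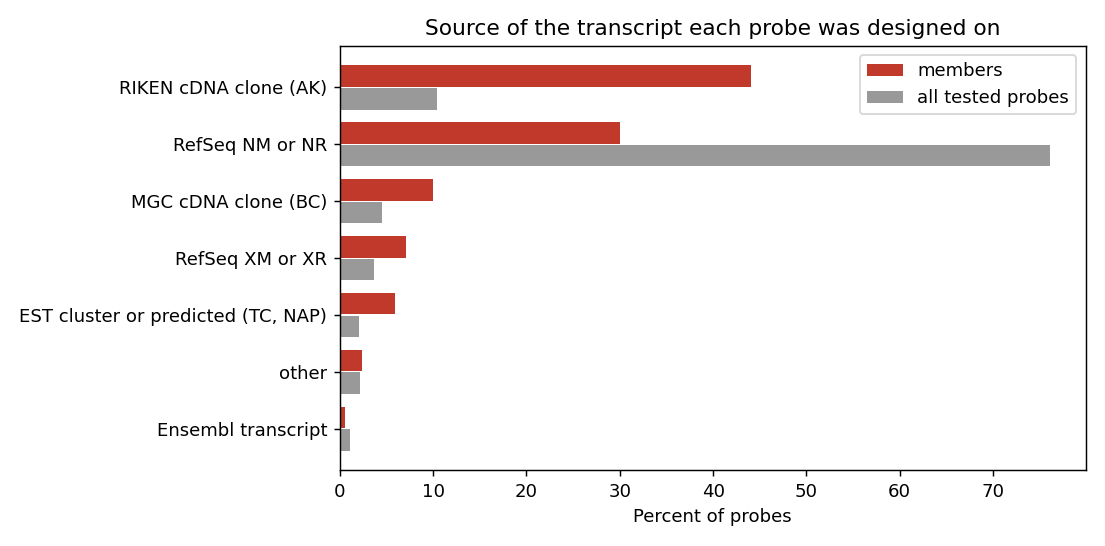
Percent of the 170 members and of the 17417 tested probes by the kind of transcript the probe was designed on. RIKEN clones make up 44.1% of members and 10.4% of tested probes, and RefSeq NM or NR transcripts 30% and 76.1%.

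Since each level is a ratio to the pup reference, the 2 colour channels were also taken apart. In the heart channel alone the median 3-week difference of the members was 1.83 in MuRF1 -/- and 1.68 in MuRF1 +/+, and all 170 were above chow in both. In the reference channel the medians were 0.15 and 0.14. The reference differed by 0.5 or more in both genotypes at 6 members. It was higher at 3 weeks for Aff4, Gabbr2 and the antisense transcript Atcayos, which also had larger heart differences (2.58 and 2.15 for Atcayos). It was lower for Samd10 (-0.71 and -0.77), Olfr430 (-0.91 and -0.59) and 1 unnamed probe. The heart signal of Olfr430 differed by only 0.23 and 0.58, that of Samd10 by 1.09 and 0.37 and that of the unnamed probe by 1.23 and 0.80. In all, 5 members were under 1.0 in the heart channel in either genotype. Their part in the ratios of these 6 was not tested further.

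Many genes on the list of SR proteins, their relatives and CLK kinases also rose at 3 weeks at probes that were no members. Of 24 genes with no member probe, taken at the brightest probe of each, 16 rose in MuRF1 -/- and none fell, and 16 rose in MuRF1 +/+ and 1 fell (limma, Benjamini-Hochberg adjusted over all tested probes). Another 7 genes of the list have a member probe, which for Luc7l is its brightest. Over all tested probes 12.1% rose and 14.4% fell in MuRF1 -/-, and 9.82% rose and 10.6% fell in MuRF1 +/+. The median log2 differences of the 24 were 0.74 and 0.74, and at 8 weeks they were -0.05 and 0.07. The list was written with earlier results of these hearts known, so its direction is not independent evidence. The kinase gene Clk1 rose by 1.84 ± 0.25 in MuRF1 -/- and by 1.55 ± 0.25 in MuRF1 +/+ (SE, limma adjusted p = 7.34e-05 and 0.000444), and Clk4 by 1.49 and 1.36. Srsf6, an SR protein, rose by 0.92 and 0.84. Clk2 fell by 0.72 in MuRF1 +/+ (limma adjusted p = 0.0389), and its difference of -0.44 in MuRF1 -/- did not pass (limma adjusted p = 0.173). Srsf4, Srsf5 and Srsf10 did not pass the test in either genotype. Clk1, Clk4 and Srsf6 were named after their values were seen, as were the genes that did not pass.

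**Figure D5:**
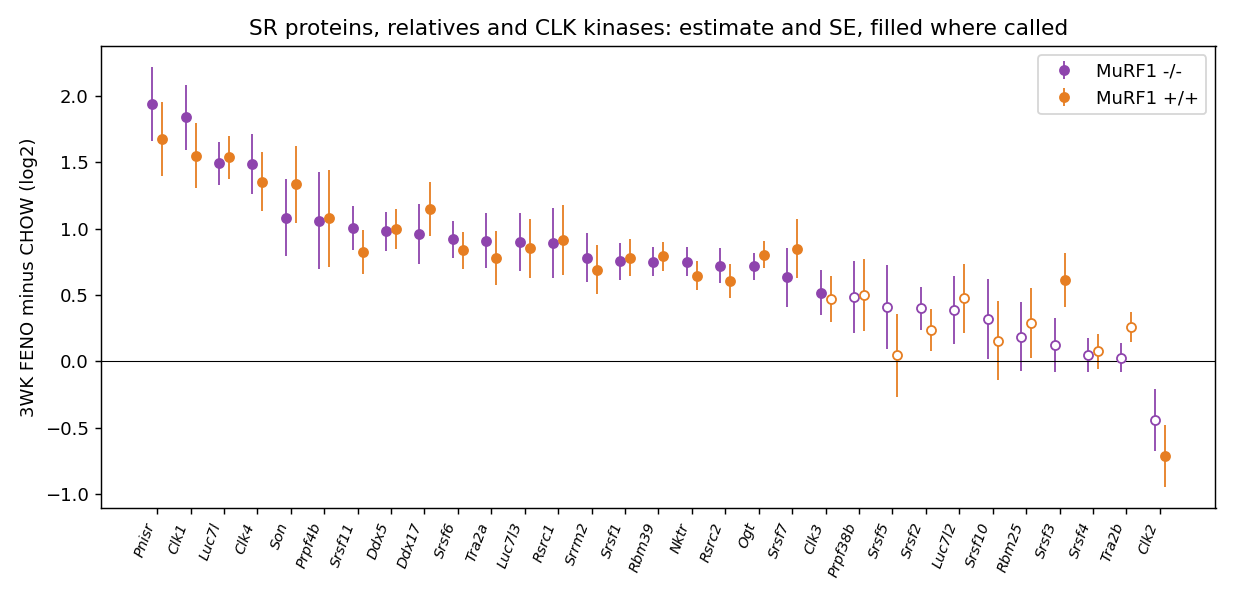
The 3-week difference from chow (log2, estimate and SE from limma) of 31 genes of the list of SR proteins, relatives and CLK kinases, at the brightest probe of each, for MuRF1 -/- and MuRF1 +/+. Filled points passed the test. Of these 31 genes 7 have a member probe, among them Luc7l at the probe plotted, and 15 of the other 24 rose in both genotypes.

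On other lists fewer genes moved. Of 25 chromatin genes 12 rose in MuRF1 -/- and 9 in MuRF1 +/+ and none fell, and of 16 genes of core splicing and RNA decay 3 and 6 rose. Of 8 nuclear RNAs 4 rose in MuRF1 -/- and 3 in MuRF1 +/+, among them Kcnq1ot1 (3.26 and 2.81), Neat1 (3.08 and 2.40) and Malat1 (2.79 and 2.38). At these probes Neat1 missed the rule by its 8-week differences (0.42 and 0.58), and Malat1 by that in MuRF1 +/+ (0.69). Among 23 PPAR alpha targets other than Creb3l3, 0 rose and 2 fell in MuRF1 -/-, and 0 rose and 1 fell in MuRF1 +/+. These results are for 3 weeks. At 8 weeks the median differences of the 23 were 0.29 and 0.08. Pdk4 was then at 2.50 and 2.81, Acot1 at 1.80 and 2.77 and Angptl4 at 1.25 and 1.84, while Ucp3 was at -0.11 and -0.07. The 8-week differences were not tested. Of 14 heat shock genes 0 rose in either genotype and 1 fell in MuRF1 -/-, and of 16 cytosolic ribosomal protein genes none passed. Markers of other cell types were set beside these. Of 6 fibroblast markers 3 rose in MuRF1 -/- and 2 in MuRF1 +/+, with mean log2 levels of -3.38 to -2.95 at 3 weeks against -3.96 to -3.44 on chow in MuRF1 -/-, and of -3.42 to -3.11 against -3.95 to -3.78 in MuRF1 +/+. Of 6 endothelial markers 1 rose in MuRF1 -/- and 0 in MuRF1 +/+, with mean levels of 0.57 to 0.97 against 0.23 to 0.46 and of 0.51 to 0.98 against 0.20 to 0.32. On MuRF1 +/+ 8-week arrays the endothelial mean was 0.68 to 1.80, where the members were near chow on 2 of 3 arrays. Of 4 atrial markers 1 rose in each genotype, Nppa in MuRF1 -/- and Myl7 in MuRF1 +/+, with mean levels of -2.16 to -0.30 against -2.30 to -1.96 and of -1.38 to -1.08 against -2.25 to -1.94. Of 5 macrophage markers 2 fell in MuRF1 -/- and 0 passed in MuRF1 +/+, with mean levels of -0.36 to 0.00 against -0.15 to 0.47 and of -0.08 to 0.14 against -0.09 to 0.21. Of 8 cardiomyocyte markers 0 rose, and 1 fell in MuRF1 -/- and 2 in MuRF1 +/+. No lymphocyte or thymus marker passed the detection filter. The part of these cell types in the members was not tested.

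The genotypes were also compared with each other. The rule held both genotypes to like differences from chow, so it limits how far members can differ between genotypes, and the members' counts are not read against the shares of all probes. On chow 0 of the 170 members passed (limma, adjusted over all tested probes), as did 7 of 17417 probes (0.0402%), and 7 members had an unadjusted p under 0.05 (3.3% of all probes). At 3WK FENO 0 members passed, against 8 probes (0.0459%), and 20 members had an unadjusted p under 0.05 (5.78% of all probes). At 8WK FENO 1 member passed, against 179 probes (1.03%), and 21 had an unadjusted p under 0.05 (26.9% of all probes). The Y-linked Ddx3y also differed between these 8-week groups. It was low on all MuRF1 +/+ arrays (-3.37 to -2.16) and high on replicates 1 and 3 of MuRF1 -/- (2.34 and 1.93). The part of sex in the 8-week genotype comparison was not tested. The members' median MuRF1 -/- minus MuRF1 +/+ difference was -0.18 on chow, 0.07 at 3 weeks and -0.33 at 8 weeks, against -0.02, -0.03 and 0.05 over all tested probes. The 8-week value turned to 0.02 without replicate 2 of MuRF1 +/+ 8WK FENO. In data simulated for the 3-week comparison, 72% of changes of 1 log2 unit and 98% of changes of 2 units were called, so smaller genotype differences could have been missed.

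The member that passed was Ghr, at its member probe, which was designed on a RIKEN clone. Its 8-week levels were -2.79, -2.20 and -2.60 in MuRF1 -/- hearts against -2.06, -1.38 and -1.51 in MuRF1 +/+ hearts, without overlap. The difference was -0.88 ± 0.20 (SE, limma adjusted p = 0.0455). It did not hold with slide as a block (adjusted p = 0.117) or without replicate 2 of MuRF1 +/+ 8WK FENO (adjusted p = 0.173), and over all alternatives the adjusted p ran from 0.000166 to 0.509. The count of probes called at 8 weeks was 5178 without MuRF1 +/+ 8WK FENO replicate 1 and 16 without MuRF1 -/- 8WK FENO replicate 1, so single hearts set it. With replicate 1 of MuRF1 +/+ left out, 48 members were called. The other Ghr probes past the filter, on the RefSeq transcript, differed from chow at 8 weeks by -0.55, 0.30 and 0.30 in MuRF1 -/-. In MuRF1 +/+ they differed by -0.69, 0.02 and -0.50, in the same order. Their chow levels were 1.46, 1.15 and 0.93 in MuRF1 -/- and 1.44, 1.25 and 1.12 in MuRF1 +/+. By these values each RefSeq probe was higher in MuRF1 -/- than in MuRF1 +/+ at 8 weeks, the reverse of the clone probe. The lower MuRF1 -/- level of Ghr is therefore given for the clone probe only, and the part of sex in it was not tested.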

How the data were processed

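Heart RNA (50 ng, amplified, per the labels) was hybridised in Cy5 against pup reference RNA in Cy3 on 20 Agilent arrays. The label text names Cy3 for heart labelling, and the channel labels, which name Cy5, were followed. The deposited scanner files hold spot intensity and Agilent's log10 ratio, written by Feature Extraction 9.5.3.1 for design 014868, per the file headers after it subtracted background, removed a spatial trend and normalized the dyes. Flags deposited as scores of 0 or 1 mark spots well above background, saturated or outlying. A deposited matrix gives the authors' own log2 values, and how they were scaled is unknown here. Its columns ran in the direction of Agilent's ratio with slopes of 0.75 to 0.877, except for 0.43 on replicate 2 of MuRF1 -/- CHOW. That array was also the only one with spots (7) left out of the normexp fit. The MuRF1 -/- chow means in the matrix and with normexp on all spots include it.

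Log10 ratios were multiplied by 3.32, spots marked as outliers were left out (2 of 3400 member values), and spots of a probe were averaged, giving 41174 probes from 43379 spots. A probe was tested if at least 10 arrays were well above background. Names came from the files' accessions, symbols and synonyms through a RefSeq table of GRCm38.p6 (8455 probes matched none and kept the files' names). Of the members 46 have no known chromosome, so the exclusion of X- and Y-linked genes could not reach them. No heart spot of a member was saturated.

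Groups were compared with limma 3.58.1 in R 4.3.3 (6 group means over all 20 arrays, trended variance, Benjamini-Hochberg over 17417 probes at 0.05), with the data.table package (version 1.17.8), after testing on simulated data. The labels do not say more than biological replicate, so p-values measure the spread between these hearts. The number of arrays, 3 or 4 a group, limits the precision. Members, lists and tests were chosen with earlier results of these data known. Genes named are the 20 named members with the largest smaller-of-both-genotypes difference, those called between genotypes, the highest with other probes, those on a list, those nearest each limit, and others said to be named after their values were seen. A named member is not reported here. Roles were also assigned after values were seen. The arrays lie on 5 slides of 4, per the file headers.

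Alternatives were other background corrections, the series matrix, the heart channel alone, other detection filters and rule limits, a slide or replicate block, array weights, only the groups compared, and leaving out each array.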

Additional observations from a re-analysis of the deposited data

Results flagged for a closer look

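Among 162 sets of 4 hearts looked at for the 81 member probes with a role or a name in the report, 7 had 1 heart far from the other 3, where chance gives about 1 in 20. Values are log2 levels over the reference. In MuRF1 -/- 3WK FENO, Atp2c1 was 0.11 in replicate 4 (others -0.72 to -0.64), Rbm26 was -1.21 in replicate 2 (others -0.93 to -0.88), Atp6v0e was 0.29 in replicate 3 (others -0.02 to 0.02) and Ccnl1 was -0.50 in replicate 2 (others 0.09 to 0.18). In MuRF1 +/+ 3WK FENO, Ghr was 0.93 in replicate 4 (others 0.44 to 0.52), Luc7l at its second probe was 0.96 in replicate 4 (others 0.42 to 0.51) and B3gat3 was -0.34 in replicate 1 (others -0.00 to 0.05). All of these hearts lay above the chow hearts of their genotype for these probes.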

How the results depend on the processing

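Which probes met the rule depended on the background correction. Against 170, the rule chose 88 with normexp and loess, 68 with normexp fitted on all spots, 85 in the authors' matrix (31, 24 and 34 of them members), 545 with detection on 3 arrays, 70 with detection on all 20 and 100 with an 8-week limit of 0.3, and 96 to 258 when 1 array was left out. The median 3-week difference in MuRF1 -/- was 0.71, 0.58 and 0.85 under those 3 corrections, 2.0 and 1.37 within slides 3 and 5, and 1.64 to 1.87 with 1 array left out. In MuRF1 +/+ it was 0.68, 0.68 and 0.97, 1.68 in the heart channel, 1.40 with detection on all 20 arrays and 1.51 to 1.56 with 1 array left out. The 8-week median in MuRF1 -/- was -0.22 in the matrix and -0.17 to 0.042 with 1 array left out, and in MuRF1 +/+ -0.17 to 0.37. None of these medians at 3 weeks changed sign.

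Probes called between genotypes on chow were 12 with normexp, 11 with normexp on all spots, 18 without the 2 arrays that stood apart, 35 with array weights and 5 to 17 with 1 array left out. At 3 weeks they were 18 with normexp, 13 without the 2 arrays, 5 with slide as a block, 190 with array weights and 4 to 12 with 1 array left out, and members called were 2 with normexp, 1 with normexp on all spots and 9 with array weights. At 8 weeks probes called were 78 with normexp, 6 with normexp on all spots, 9 in the matrix, 69 with detection on 3 arrays, 331 with detection on all 20, 112 without the 2 arrays, 10 with slide as a block, 0 with only the 2 groups in the fit, 6699 with array weights and 16 to 5178 with 1 array left out. Members called at 8 weeks were 0 with normexp, normexp on all spots, the matrix, the heart channel, detection on 3 arrays, slide as a block or only the 2 groups, 54 with array weights and 0 to 48 with 1 array left out. Over 46 pairs of arrays with the same number in different groups, the correlation of deviations from the group mean ran from -0.578 to 0.418 with a median of -0.0243, so the numbers were not taken as pairs. With the replicate number as a block, 0 members and 32 probes were called at 8 weeks, and Ghr had a limma adjusted p of 0.0516. The Ghr difference kept its direction under all 31 alternatives and missed the threshold under 26. The counts of SR protein and CLK kinase genes that rose, 21 of 31 in each genotype with Luc7l, were 17 to 23 in MuRF1 -/- and 16 to 23 in MuRF1 +/+ with 1 array left out. The causes of these shifts were not tested. Levels of members not well above background on chow or at 8 weeks are bounds, which limits their differences.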
